A study of Mus musculus with 6 samples.

Results

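The tubular injury and repair markers were a set of 10 mouse genes, *Havcr1*, *Lcn2*, *Krt18*, *Krt20*, *Vcam1*, *Spp1*, *Sox9*, *Cd44*, *Clu* and *Vim*, chosen by name and found in the deposited kidney table through their Ensembl identifiers. All 10 were among the 54532 genes listed. Whole kidneys were compared after 4 days of doxycycline at 600 mg/kg chow, which both groups received. The Control group consisted of KsprtTA mice, which carry the doxycycline-dependent activator and no adiponectin transgene (the labels call them WT), and the KSPAPN group of KsprtTA/TRE-Adiponectin mice, in which the Ksp promoter directs adiponectin to the epithelia between proximal tubule and collecting duct. All were male mice on a C57BL/6 background, and no age was given for these animals. Each group had 3 libraries, each made from a pool of 3 mice, so 9 mice per group were sampled, and replicate error is that of pools rather than of single mice.

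A tubule cell that is injured loses part of its differentiated program and switches on genes that are nearly silent in the healthy adult nephron. Some encode shed or secreted proteins used as urinary markers of damage, some encode cytoskeletal and adhesion proteins of a flattened, migrating cell, and others belong to the repair program itself. Several are not particular to injured tubules: *Spp1*, *Clu* and *Krt18* are also made by intact segments, and *Vim*, *Cd44* and *Vcam1* by stromal, vascular or immune cells. In RNA from whole kidney, fewer cells of a type and less RNA per cell cannot be told apart.

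The 6 libraries held between 17183358 and 20871173 reads on genes, and 16017 genes passed the filter on low counts. *Adipoq*, the gene of the transgene product, had 2, 0 and 2 reads in Control and 24629, 17483 and 26811 in KSPAPN (edgeR adjusted p = 2.97e-09), so every library matched its label. Relative to Control, 63 of the genes tested were higher in KSPAPN at an adjusted p under 0.05 (0.393%) and 361 were lower (2.25%), by the quasi-likelihood test of edgeR. Differentiated proximal tubule markers were present at high level in all libraries, with a summed value of 3854 to 5201 FPKM over 12 genes (FPKM is the deposited unit, fragments scaled by gene length and sequencing depth).

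No injury and repair marker was called in either direction by edgeR with its filter, while DESeq2 called 1, *Clu*, lower. DESeq2 called 5.31% of the 14019 genes with an adjusted p lower. Of the 10 markers, 8 passed the filter, and *Krt20* and *Sox9* did not. The log2 fold change of KSPAPN over Control was positive for 7 of the 8 and negative for *Clu*, where 8307 of all 16017 genes tested were positive. The median was 0.28, beside a median of 0.012 over all genes tested. At an unadjusted p under 0.05, *Cd44* was higher and *Clu* was lower, that is 1 of 8 in each direction, where 7.52% of all genes tested were higher and 11.2% lower at that limit. *Clu* was also the only marker whose FPKM did not overlap between the groups, and the same was so in CPM (counts scaled to library size). Such separation, with KSPAPN below, was found in 13.5% of all genes tested, and with KSPAPN above, which no marker showed, in 10.8%. The p-values measure the variation among these pools.

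**Figure D1:**
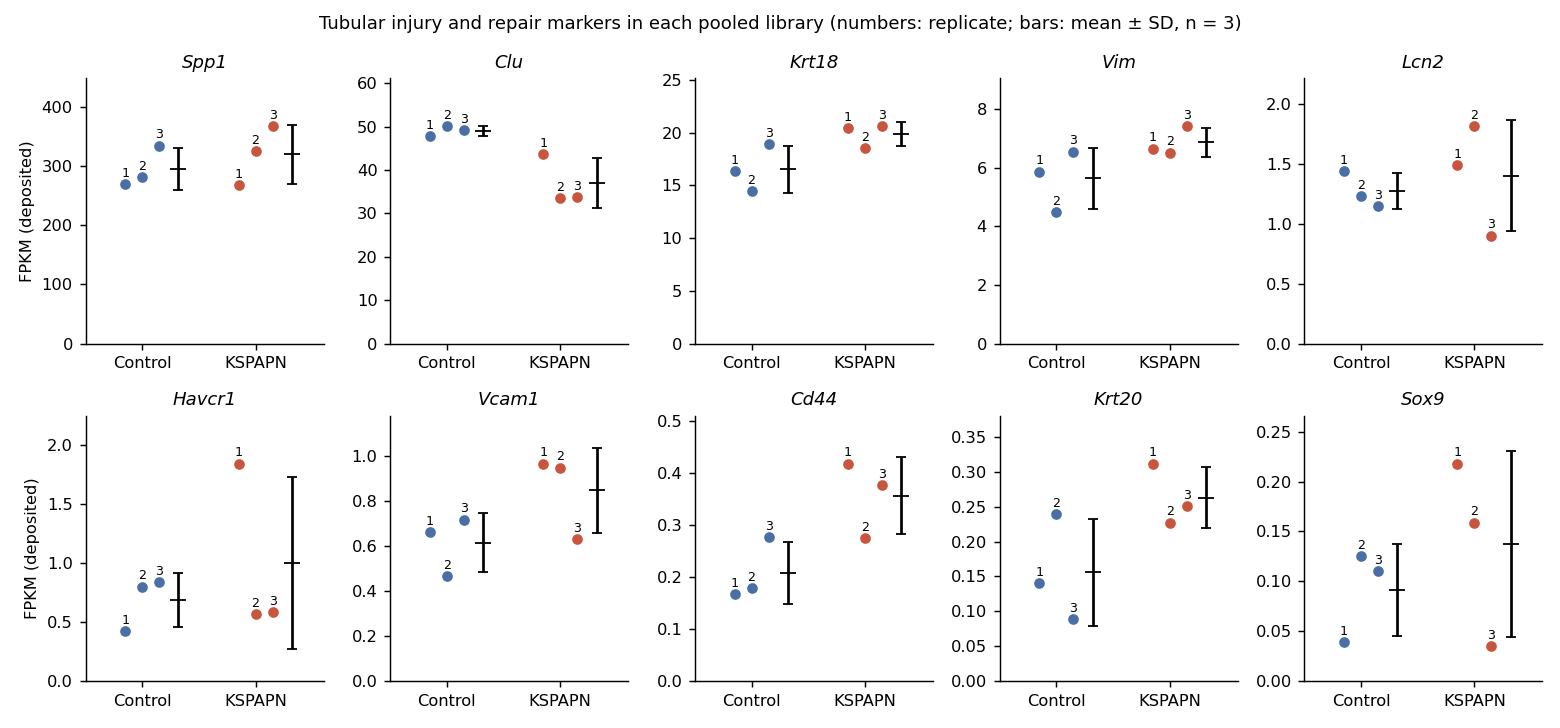
FPKM of the 10 markers (linear y axes starting at 0, one panel per gene) in the 3 Control libraries (blue) and the 3 KSPAPN libraries (red), with the replicate number beside each point and bars for mean ± SD, n = 3. The groups overlap in every panel other than *Clu*, where Control lay between 47.7 and 50.1 and KSPAPN between 33.6 and 43.6, and *Havcr1* stands at 1.84 in KSPAPN replicate 1 while the other 5 libraries are at or below 0.837.

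The markers spanned a wide range of abundance, per length of gene. Averaged over all 6 libraries, *Spp1* was at 307 FPKM, above 99.4% of the genes tested, followed by *Clu* at 43.0, *Krt18* at 18.2 and *Vim* at 6.25. Then came *Lcn2* at 1.34, *Havcr1* at 0.841, *Vcam1* at 0.733, *Cd44* at 0.282, *Krt20* at 0.210 and *Sox9* at 0.114. The order from *Spp1* to *Lcn2*, and of *Vcam1* over *Cd44*, was the same in 6 of 6 libraries. *Lcn2* over *Havcr1*, *Cd44* over *Krt20* and *Krt20* over *Sox9* held in 5 of 6. *Havcr1* exceeded *Vcam1* in 3 of 6, so those neighbours did not differ beyond their spread. In Control replicate 1, reads, FPKM and total count gave lengths 1.018 times the union of annotated exons for each of the 10 genes, so the deposited FPKM followed that union, up to a scaling factor shared by the genes of a library. With the longest transcript as the length, *Vcam1* (1.59) stood above *Havcr1* (0.958), and *Clu* (81.6) stayed below *Spp1* (335.5).

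*Havcr1* (ENSMUSG00000040405, chromosome 11, 46735080 to 46779578, plus strand, GRCm38 with the GENCODE M21 annotation, as for all genes) encodes KIM-1, a membrane receptor that lets injured proximal tubule cells take up dead neighbours. It had 18, 32 and 34 reads in Control replicates 1, 2 and 3 and 99, 24 and 28 in KSPAPN, or 0.420, 0.798 and 0.837 FPKM against 1.84, 0.568 and 0.585. One KSPAPN pool was thus high, and the other two lay inside the Control range. The means were 0.685 ± 0.230 and 0.997 ± 0.729 (SD, n = 3), and the log2 fold change of 0.57 (SE 0.50, 95% interval -0.54 to 1.68, edgeR adjusted p = 0.588) turned to -0.23 without KSPAPN replicate 1. That pool was 3.19 times the mean of the other KSPAPN pools for *Havcr1*, where the median over all genes tested was 0.984. A small share of the gene (0.694% of its stretches of 100 bases) was also found in the related gene *Timd2*.

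KSPAPN replicate 1 also had the highest FPKM of *Krt20*, *Vcam1*, *Sox9* and *Cd44*, which makes 5 of 10 markers and 3 of the 8 tested. It was the highest library in 17.5% of all genes tested. KSPAPN replicate 3 was highest for 3 markers, KSPAPN replicate 2 for *Lcn2* and Control replicate 2 for *Clu*. In KSPAPN replicate 1, 8 of 12 leukocyte markers were at their highest, with a sum of 149.1 FPKM beside 103 to 134.5 in the other 5 libraries. Some of these 8 did not pass the filter on low counts, so the share over genes tested does not apply to them. *Cd74*, named after its values were seen, gave 110.5 FPKM of that sum and stood at 103.9 in Control replicate 1. The sum over 10 markers of the medulla and distal nephron was 1891 FPKM in KSPAPN replicate 1, beside 1330 to 1616, although only 3 of these 10 were at their highest there. The sum over 12 proximal tubule markers was the lowest of the 6 libraries, at 3854. The part of these differences in the marker values was not tested.

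*Lcn2* (ENSMUSG00000026822, chromosome 2, 32384633 to 32388252, minus strand) encodes NGAL, a secreted siderophore-binding protein that distal segments release after damage. Its FPKM was 1.44, 1.23 and 1.15 in Control and 1.49, 1.82 and 0.901 in KSPAPN, so the lowest and the highest library were both KSPAPN. The log2 fold change was 0.14 (SE 0.29, 95% interval -0.50 to 0.78, edgeR adjusted p = 0.835). It was -0.073 without KSPAPN replicate 2, 0.38 without KSPAPN replicate 3, and 0.32 after the trend of fold change with GC content and gene length over all genes was removed. *Lcn2* rested on 49 to 91 reads per library.

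The intermediate filament genes among the markers were *Krt18*, *Krt20* and *Vim*. Keratin 18 pairs with keratin 8 in the filaments of simple epithelia, keratin 20 is a type I keratin that appears in injured tubules, and vimentin is the filament protein of mesenchymal and dedifferentiated cells. The 250 bases before the transcription start of these genes and of *Krt8*, read from RefSeq (GRCm38.p6), are shown because the keratin pair is set side by side further on and because these windows held the only motif matches among the markers. They are chr15:102027966-102028215 (plus strand) for *Krt18*, chr15:102004343-102004592 (minus) for *Krt8*, chr11:99438154-99438403 (minus) for *Krt20* and chr2:13574061-13574310 (plus) for *Vim*, written 5′ to 3′ along each gene, with motif matches in capitals.
Krt18: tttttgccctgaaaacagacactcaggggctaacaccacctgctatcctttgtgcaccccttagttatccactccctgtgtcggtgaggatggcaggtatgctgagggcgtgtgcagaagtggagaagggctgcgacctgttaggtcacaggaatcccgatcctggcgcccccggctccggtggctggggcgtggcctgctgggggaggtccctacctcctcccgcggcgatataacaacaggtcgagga
Krt8: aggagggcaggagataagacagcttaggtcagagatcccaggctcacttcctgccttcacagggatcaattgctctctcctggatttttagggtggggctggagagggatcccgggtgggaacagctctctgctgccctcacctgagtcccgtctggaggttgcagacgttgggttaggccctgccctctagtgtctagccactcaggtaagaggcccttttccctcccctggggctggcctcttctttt
Krt20: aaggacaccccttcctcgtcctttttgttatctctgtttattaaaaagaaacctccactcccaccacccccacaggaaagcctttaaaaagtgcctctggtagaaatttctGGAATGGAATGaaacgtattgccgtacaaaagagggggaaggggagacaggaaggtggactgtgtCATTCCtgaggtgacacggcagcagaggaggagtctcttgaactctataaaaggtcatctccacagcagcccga
Vim: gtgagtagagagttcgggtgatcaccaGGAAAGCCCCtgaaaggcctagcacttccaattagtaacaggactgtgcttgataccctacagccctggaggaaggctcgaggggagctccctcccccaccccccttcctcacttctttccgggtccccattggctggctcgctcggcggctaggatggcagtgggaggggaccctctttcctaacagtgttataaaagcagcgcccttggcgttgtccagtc

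Motifs of 4 factors linked to tubular injury were searched on both strands of 32851 promoter windows of this length. The AP-1 letters TGANTCA occurred in 6.75% of the windows, the TEAD letters GGAATG in 12.6%, the STAT letters TTCNNNGAA in 7.02% and the NF-kB motif, as in the capitals of the *Vim* window with any base at 2 of its positions, in 1.41%. The table held 10 promoters of 7 markers, and *Clu*, *Sox9* and *Vcam1* had none in it. Among the 10, the TEAD letters were in the *Krt20* window, with 3 matches beginning 139, 134 and 74 bases before the start, of which the first pair overlaps. The NF-kB motif was in the *Vim* window, 223 bases before the RefSeq start on the opposite strand. By the GENCODE bounds, the *Vim* window lies inside the gene, and the *Krt18* and *Krt8* windows reach partly into theirs. The windows of *Krt18* and *Krt8* held none of the 4, which says only that these letters are not there, and a match is a description of the sequence.

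*Krt18* (ENSMUSG00000023043, chromosome 15, 102028180 to 102032027, plus strand) was at 16.3, 14.4 and 18.9 FPKM in Control and 20.4, 18.6 and 20.6 in KSPAPN. Only KSPAPN replicate 2, at 18.58, lay below the highest Control value of 18.89. The means were 16.6 ± 2.23 and 19.9 ± 1.12 (SD, n = 3), with a log2 fold change of 0.27 (SE 0.13, 95% interval -0.013 to 0.55, edgeR adjusted p = 0.289). It was 0.18 without Control replicate 2 and 0.38 without Control replicate 3. After the GC and length trend was removed, the value was 0.47 and the adjusted p 0.0753.

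*Krt8*, the partner of *Krt18*, was described here after its values were seen. It had 66.0, 58.7 and 56.0 FPKM in Control and 54.1, 51.4 and 50.6 in KSPAPN, with all KSPAPN pools below all Control pools, and its log2 fold change was -0.20 (SE 0.092, edgeR adjusted p = 0.270), which shrank to -0.031 (adjusted p = 0.866) once the GC and length trend was removed. The FPKM ratio of *Krt18* to *Krt8* was 0.248, 0.246 and 0.337 in Control and 0.377, 0.361 and 0.407 in KSPAPN. Every KSPAPN ratio therefore stood above every Control ratio. The mean ratio was 0.277 ± 0.0522 in Control and 0.382 ± 0.0233 in KSPAPN (SD, n = 3), a difference of 0.48 on the log2 scale, given as a description with no test because the pair was chosen for its values. It was 0.40 to 0.63 with each library left out in turn and 0.50 after the GC and length trend was removed. *Krt8* shares 17.1% of its 100-base stretches with other genes, above all the pseudogene *Krt8-ps*, so its reads are uncertain to that extent, while *Krt18* shares none.

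**Figure D2:**
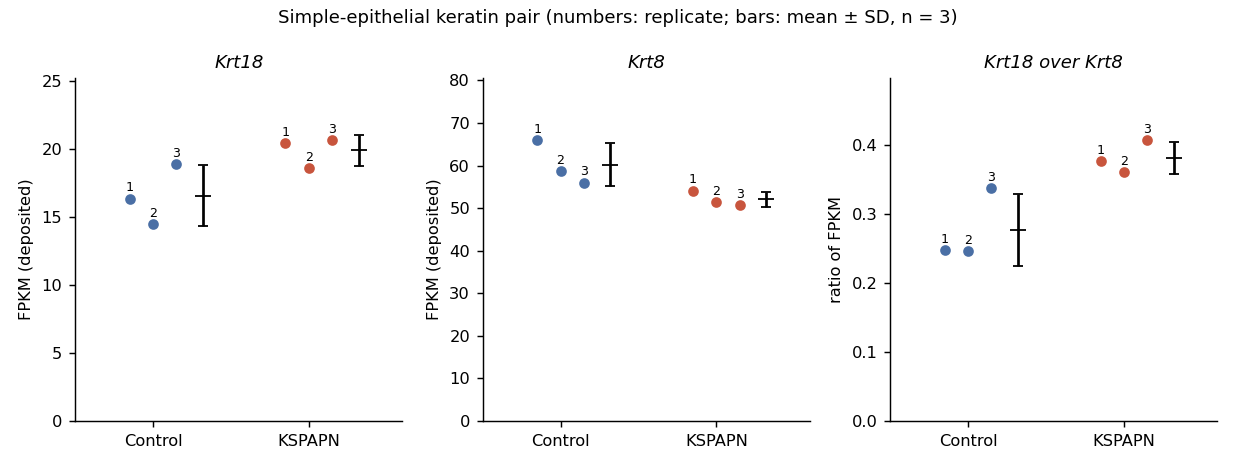
FPKM of *Krt18* (left) and *Krt8* (middle) and the ratio of the first to the second (right, no unit) in the 3 Control (blue) and 3 KSPAPN (red) libraries, with replicate numbers and bars for mean ± SD, n = 3, on y axes starting at 0. *Krt18* overlaps between the groups, *Krt8* is lower in each KSPAPN pool, and the ratio runs from 0.246 to 0.337 in Control and from 0.361 to 0.407 in KSPAPN.

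*Vim* (ENSMUSG00000026728, chromosome 2, 13573927 to 13582826, plus strand) was at 5.87, 4.49 and 6.55 FPKM in Control and 6.65, 6.52 and 7.42 in KSPAPN, where KSPAPN replicate 2 lay just under the highest Control pool. The log2 fold change was 0.29 (SE 0.14, 95% interval -0.027 to 0.61, edgeR adjusted p = 0.310), and it was 0.15 without Control replicate 2. Fibroblasts, pericytes and endothelium also make vimentin. Of 9 fibroblast and pericyte markers, 8 had a positive log2 fold change, where 8307 of all 16017 genes tested did, and 0 were called. The median was 0.30, from -0.079 for the smooth muscle actin *Acta2* to 0.94 for the collagen-binding proteoglycan *Lum* (edgeR adjusted p = 0.284). The summed level of the 9 was 29.7 to 48.2 FPKM in Control and 32.7 to 56.7 in KSPAPN. For 8 endothelial markers the median was 0.080, with 0 called, from -0.27 for the diaphragm protein *Plvap* to 0.18 for *Ehd3*, and the sums were 87.5 to 125.7 and 83.6 to 108 FPKM. The part of stromal RNA in the *Vim* values was not tested.

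*Krt20* (ENSMUSG00000035775, chromosome 11, 99428403 to 99438150, minus strand) was near the limit of detection, with 5, 8 and 3 reads in Control and 14, 8 and 10 in KSPAPN. The log2 ratio of 0.79 dropped to 0.51 without Control replicate 3 and was 1.2 without Control replicate 2. The 16 and 32 reads give a ratio of KSPAPN to Control of 1.73 (95% exact interval 0.919 to 3.37, for counting error only), which does not separate the groups at this depth. Without the filter, the edgeR log2 fold change was 0.76 with an adjusted p of 0.735.

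Adhesion and matrix genes formed the next group. *Cd44* (ENSMUSG00000005087, chromosome 2, 102811141 to 102901665, minus strand), the hyaluronan receptor, had 21, 21 and 33 reads in Control and 66, 34 and 53 in KSPAPN. In FPKM these were 0.167, 0.179 and 0.277 against 0.418, 0.275 and 0.377, so KSPAPN replicate 2 lay just under Control replicate 3 and the others apart. The log2 fold change of 0.79 (SE 0.33, 95% interval 0.050 to 1.53) was the largest of the 8 markers tested, with an edgeR p of 0.0387 before adjustment and 0.239 after. It ranged from 0.65 to 1.05 with each library left out. On the log2(FPKM + 1) scale, which compresses low genes, it was 0.17.

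*Vcam1* (ENSMUSG00000027962, chromosome 3, 116109949 to 116129688, minus strand), which binds leukocyte integrins and marks tubule cells that fail to recover, was at 0.663, 0.468 and 0.718 FPKM in Control and 0.968, 0.9498 and 0.631 in KSPAPN. KSPAPN replicates 1 and 2 were above all Control pools, and KSPAPN replicate 3 was below Control replicates 1 and 3. The log2 fold change was 0.47 (SE 0.24, 95% interval -0.059 to 0.99, edgeR adjusted p = 0.327), and it was 0.30 without Control replicate 2. Of 12 leukocyte markers, 7 passed the filter and 0 were called, with a median of -0.033, from -0.19 for the macrophage receptor *Csf1r* to 0.35 for lysozyme *Lyz2*. Their sums were 113.5 to 134.5 FPKM in Control and 103 to 149.1 in KSPAPN, and the neutrophil gene *S100a8* was at 0 in at least 1 library.

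*Spp1* (ENSMUSG00000029304, chromosome 5, 104435118 to 104441050, plus strand) encodes osteopontin, a secreted integrin ligand made by healthy distal segments and by injured tubules. It was at 268.5, 280.5 and 334 FPKM in Control and 267, 324 and 367 in KSPAPN, with the lowest and the highest values both in KSPAPN. The log2 fold change was 0.12 (SE 0.13, 95% interval -0.17 to 0.41, edgeR adjusted p = 0.665), and it ran from 0.015 without KSPAPN replicate 3 to 0.25 without KSPAPN replicate 1. With 8016 to 12526 reads per library, counting error is small here, and the spread between pools sets the interval. *Gm42793*, a predicted transcript on the same strand, shares 309 exon bases with *Spp1* and had 43 reads in all.

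*Clu* (ENSMUSG00000022037, chromosome 14, 65968483 to 65981547, plus strand) encodes clusterin, a secreted chaperone that coats misfolded protein and cell debris. It had 3039, 2984 and 2966 reads in Control and 3488, 2110 and 2404 in KSPAPN, or 47.7, 50.1 and 49.1 FPKM against 43.6, 33.6 and 33.8. The Control pools lay close together, and KSPAPN replicate 1 was nearer to them than the other KSPAPN pools. The means were 49.0 ± 1.18 and 37.0 ± 5.72 (SD, n = 3), and the log2 fold change was -0.40 (SE 0.12, 95% interval -0.65 to -0.14), or 0.759-fold. The edgeR adjusted p was 0.101, and 0.00611 before adjustment. *Clu* passed the threshold in 3 of 16 alternatives. With DESeq2 its adjusted p was 0.0309, where 5.31% of the 14019 genes with an adjusted p were lower. Without the filter, edgeR gave an adjusted p of 0.00821, where 1038 of 29418 genes were called lower. Without KSPAPN replicate 1, edgeR gave -0.52 (adjusted p = 0.0116), where 571 of 16433 genes were called lower. Removal of the GC and length trend brought the log2 fold change to -0.24 (adjusted p = 0.199).

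*Sox9* (ENSMUSG00000000567, chromosome 11, 112782224 to 112787760, plus strand), the transcription factor of tubule cells that regenerate, was the rarest marker. It had 3, 9 and 8 reads in Control and 21, 12 and 3 in KSPAPN, so KSPAPN replicate 1 was the highest library and KSPAPN replicate 3 had as few reads as Control replicate 1. The 20 and 36 reads give a ratio of 1.55 (95% exact interval 0.875 to 2.83, counting error only), and edgeR without the filter gave 0.60 with an adjusted p of 0.744. On the log2 scale the ratio of 0.63 was 0.037 when KSPAPN replicate 1 was omitted, 0.25 when Control replicate 1 was and 1.09 when KSPAPN replicate 3 was. A difference was not detectable at this depth.

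**Figure D3:**
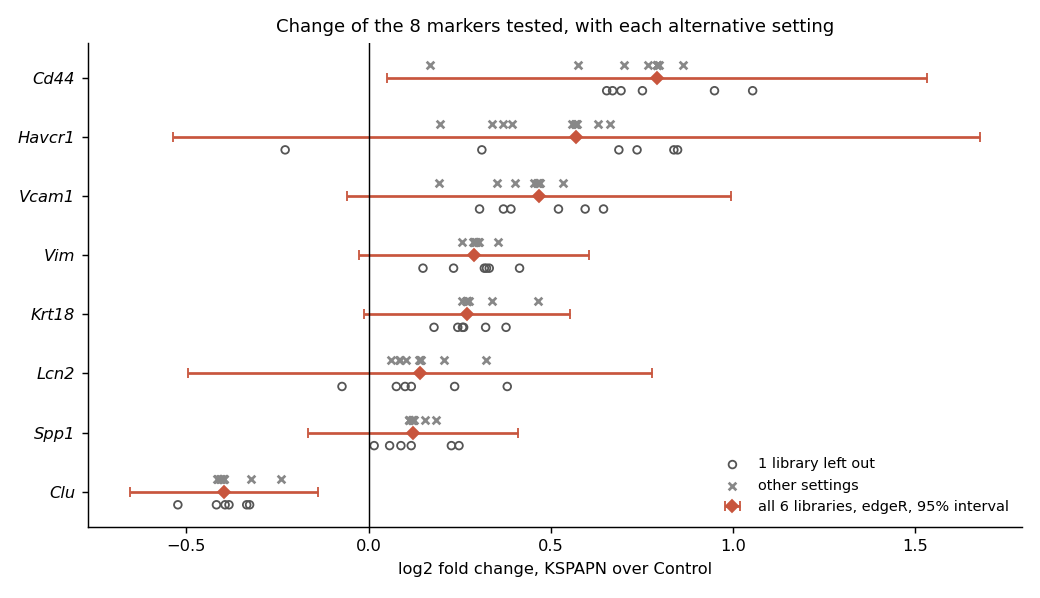
Log2 fold change of KSPAPN over Control (x axis, linear in log2 units) for the 8 markers tested, where diamonds and bars give the edgeR estimate with its 95% interval from all 6 libraries, circles the values with 1 library left out and crosses those of the other settings. The intervals of *Cd44* and *Clu* exclude 0, at 0.050 to 1.53 and -0.65 to -0.14, and circles on the other side of 0 from the estimate appear for *Havcr1* (-0.23) and *Lcn2* (-0.073).

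Further genes of tubular injury were counted to place the markers. Of 28 such genes (among them *Krt7*, *Krt19*, *Cdkn1a*, *Hmox1* and the fibrinogen chains), 27 passed the filter and 0 were called, with 14 positive and 13 negative log2 fold changes and a median of 0.013. The ends were *Fgg*, the fibrinogen gamma chain, and *Cxcl1*, a neutrophil chemokine. *Fgg* was at 2.76, 2.78 and 1.58 FPKM in Control and 0.944, 1.59 and 0.922 in KSPAPN, so that one KSPAPN pool lay inside the Control range, with a log2 fold change of -1.04 (SE 0.31, edgeR adjusted p = 0.109, and 0.0427 with DESeq2). *Cxcl1* was at 0.345, 0.246 and 0.577 FPKM in Control and 0.847, 0.905 and 0.875 in KSPAPN, with every KSPAPN pool higher, on 8 to 37 reads, and a log2 fold change of 1.17 (SE 0.40, edgeR adjusted p = 0.149).

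Receptors, ligand enzymes and linkers of the markers were counted as 16 partner genes, which included the *Lcn2* receptors *Lrp2* and *Slc22a17*, the integrins bound by osteopontin and Vcam1, the hyaluronan synthases and hyaluronidases, and the proteins that tie Cd44 to actin. Of these, 14 passed the filter, and 0 were called higher and 1 lower, where 0.393% and 2.25% of all genes tested were. The median was 0.047, with a highest value of 0.33 for the hyaluronan synthase *Has3*. The one called was *Hyal2*, a hyaluronidase anchored at the cell surface. It had 17.9, 16.7 and 20.3 FPKM in Control and 13.7, 13.8 and 12.3 in KSPAPN, without overlap, and fell by 0.46 on the log2 scale (-0.46, SE 0.10, edgeR adjusted p = 0.0451). The call was lost with any Control library or KSPAPN replicate 2 or 3 left out (adjusted p = 0.0676 to 0.179) and after the GC and length trend was removed (-0.36, adjusted p = 0.0719).

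Some nephron segment markers passed the test that the injury markers did not. Of 12 proximal tubule markers, 10 had a negative log2 fold change, where 7710 of all 16017 genes tested did. Of the 12, 0 were called higher and 2 lower, where 0.393% and 2.25% of all genes tested were. The median was -0.22, with values from -0.60 to 0.10. Their summed FPKM gives most weight to abundant genes. Of these, *Slc34a1* and *Slc27a2* overlapped between the groups, while *Miox* and *Acsm2* did not. All but *Miox* were named here after their values were seen. The sums over the 12 did not overlap, at 4519 to 5201 FPKM in Control and 3854 to 4289 in KSPAPN. *Miox*, which oxidizes myo-inositol in proximal tubule, was at 1037, 915.7 and 799.6 FPKM in Control and 565.9, 617.9 and 625.8 in KSPAPN, and fell by 0.60 on the log2 scale (-0.60, SE 0.12, edgeR adjusted p = 0.0268). *Slc22a6*, the organic anion transporter OAT1, was at 264.8, 293.4 and 257.5 FPKM in Control and 186.9, 197.4 and 205.7 in KSPAPN, and fell by 0.46 (-0.46, SE 0.098, edgeR adjusted p = 0.0388). Both were lower in each KSPAPN pool than in any Control pool.

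Of 10 markers of the medulla and distal nephron, 1 was called higher and 0 lower, where 0.393% and 2.25% of all genes tested were. The median was -0.018. At an unadjusted edgeR p under 0.05, 1 was higher and 4 were lower, where 7.52% and 11.2% of all genes tested were. *Slc12a1*, the NKCC2 transporter of the thick ascending limb, was at 194.8, 181.8 and 210.7 FPKM in Control and 307.5, 278.1 and 252.2 in KSPAPN, and rose by 0.52 (SE 0.11, edgeR adjusted p = 0.0437). Its groups did not overlap. The calls of *Slc22a6* and *Slc12a1* were lost with any of 5 libraries left out (all other than KSPAPN replicate 1), at adjusted p up to 0.144 and 0.193, and that of *Miox* without Control replicate 1 or 2 or KSPAPN replicate 2 or 3, at up to 0.139. With the GC and length trend removed, *Miox* (-0.39, adjusted p = 0.0809) and *Slc12a1* (0.46, adjusted p = 0.0746) also missed the threshold.

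The remaining cell types gave no call with edgeR. DESeq2 called 1 glomerular marker lower, where it called 5.31% of the 14019 genes with an adjusted p lower. At an unadjusted edgeR p under 0.05, 1 glomerular marker was higher and 1 lower, 1 urothelial marker was lower and 1 fibroblast marker was higher, with 0 among leukocyte and endothelial markers. Of all genes tested, 7.52% were higher and 11.2% lower at that limit. Glomerular markers (7 tested) had a median of 0.24, with a lowest value of -0.68 for the parietal cell claudin *Cldn1* and sums of 44.3 to 65.0 FPKM in Control and 59.8 to 82.7 in KSPAPN. Urothelial markers (6 tested) were negative in 6 of 6, where 7710 of all 16017 genes tested were. Their median was -0.31, from -0.72 for *Krt5* to -0.024 for *Upk1b*. The urothelial sums did not overlap, at 9.10 to 11.2 FPKM in Control and 6.99 to 8.75 in KSPAPN. Clusterin and keratin 8 are made in several of these cell types, and the part of cell composition in the *Clu* and *Krt8* values was not tested.

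**Figure D4:**
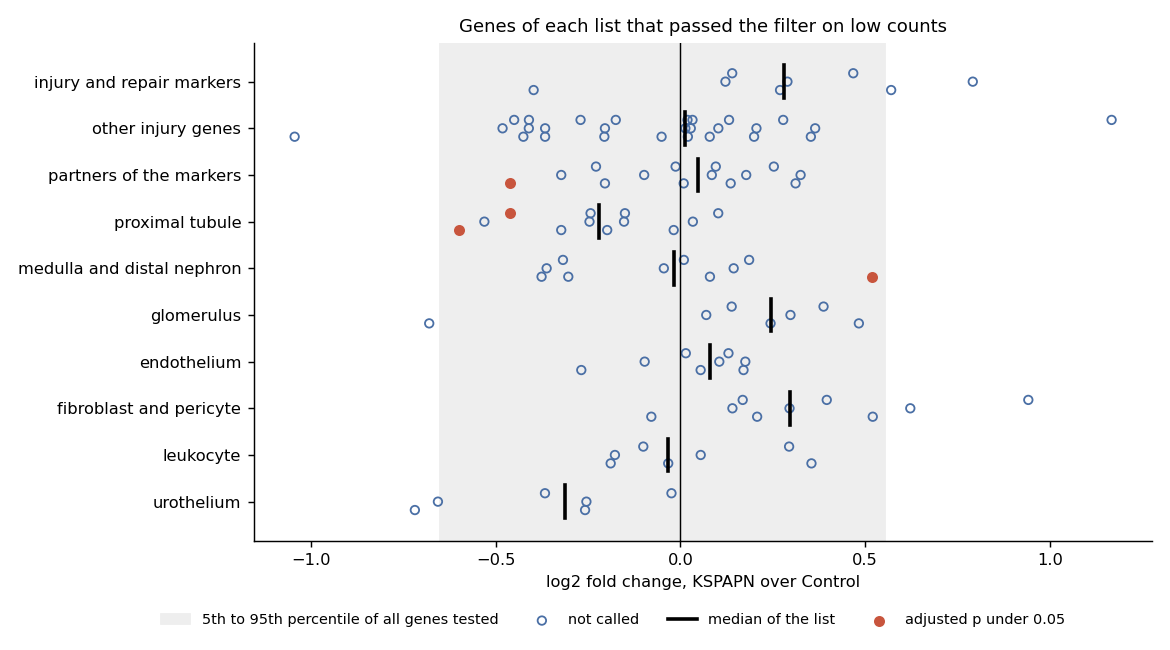
Log2 fold change of KSPAPN over Control (x axis) for the genes that passed the filter in each list (rows), with filled red points for an edgeR adjusted p under 0.05, black bars for list medians and a grey band from the 5th to the 95th percentile of all genes tested (-0.65 to 0.55). No filled point lies among the injury and repair markers (median 0.28) or the other injury genes (median 0.013), and the 4 filled points are *Hyal2*, *Miox*, *Slc22a6* and *Slc12a1*.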

How the data were processed

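RNA from whole kidneys, 3 pools of 3 mice per group, was enriched for mRNA on oligo(dT) beads and sequenced on a NovaSeq instrument. The authors deposited 1 table that holds raw counts and FPKM side by side for every gene and library, without stating strandedness, genome build or the role of each tool. The submitters' processing notes list STAR 2.5, TopHat, HTSeq 0.6.1, DESeq2 and edgeR. An extraction text speaks of liver, and the labels give kidney. Identifiers were matched to GENCODE M21 (54495 of 54532). Counts were tested with edgeR 4.0.16 in R 4.3.3 (TMM, minimum count 10, minimum total 15, quasi-likelihood test, two-sided, Benjamini-Hochberg over 16017 genes), with no covariate. Alternatives were DESeq2 1.42.0, limma 3.58.1 on log2 of the deposited FPKM plus 1, 0.1 or 0.01, other scalings, no filter, a replicate block, removal of a GC and length trend, and each library left out. Fits were tested on simulated data. Ratios of the rare markers carry exact binomial intervals on reads summed over each group. These cover counting error only and leave out the spread between pools. Reads have no molecular identifiers, so duplicate reads were not told apart. Replicate libraries differed beyond sampling noise (chi-square per degree of freedom 11.0 to 35.9).

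The markers and lists were chosen with earlier results of these data known. The text names all markers, *Adipoq*, and of each list the genes called or else those with the lowest and highest log2 fold change, except 1 that is not reported here. *Krt8* was added after its values were seen. Stretches of 100 bases shared with other genes were counted in GENCODE transcripts.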

Additional observations from a re-analysis of the deposited data

How the results depend on the processing

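Over 16 alternatives, 123 of 128 values of the 8 markers tested kept their direction and their side of the threshold, *Clu* passed it in 3, and *Havcr1* (-0.23 without KSPAPN replicate 1, up to 0.85 without KSPAPN replicate 2) and *Lcn2* (-0.073 without KSPAPN replicate 2, up to 0.38 without KSPAPN replicate 3) reversed. Markers called lower numbered 1 instead of 0 with DESeq2 and 1 with no filter, and 0 to 1 with each library left out, and markers called higher were 0 in every alternative. Genes called higher, 63 in the main test, numbered 181 with DESeq2, 301 with no filter, 10, 10 and 7 with limma at pseudocounts 1, 0.1 and 0.01, 98 with the GC and length trend removed, and 5 to 162 with a library left out. Genes called lower, 361 in the main test, numbered 195 with total counts, 744 with DESeq2, 1038 with no filter, 118, 109 and 95 with limma, and 34 to 571 with a library left out (34 without Control replicate 1, 60 without KSPAPN replicate 3, 116 without Control replicate 2, 571 without KSPAPN replicate 1). The log2 fold changes of *Clu* (-0.24), *Krt18* (0.47), *Lcn2* (0.32), *Krt8* (-0.031) and *Miox* (-0.39) moved by over 1.5 times when the GC and length trend was removed. The cause was not tested. The calls of *Hyal2*, *Miox*, *Slc22a6* and *Slc12a1* were also lost with limma at each pseudocount, and those of *Hyal2* and *Slc22a6* with total counts. Same-numbered libraries deviated together with r of 0.054, 0.15 and 0.17, so the numbers are not taken as pairs, although every library correlated best with its own number, a hint from the data and not from the design. With the replicate block, 224 genes were called higher and 705 lower, and no marker. Depth limits *Krt20*, *Sox9* and *Cd44*, and total counts moved the median of all genes from 0.012 to 0.081.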

Other observations

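Of the 27 other injury genes tested, 4 were lower at an unadjusted edgeR p under 0.05 and 1 was higher, where 11.2% and 7.52% of all genes tested were. Beside *Fgg* and *Cxcl1*, these were *Itgb6*, the epithelial integrin that activates latent TGF-beta (-0.45, SE 0.15, adjusted p = 0.154), *Dcdc2a*, a microtubule-binding gene (-0.48, SE 0.18, adjusted p = 0.182), and *Cryab*, a small heat shock protein (-0.41, SE 0.18, adjusted p = 0.254), all named after their values were seen. The *Itgb6* values were 14.2, 16.9 and 12.6 FPKM in Control and 8.04, 12.1 and 11.8 in KSPAPN, without overlap. Such separation, with KSPAPN below, was found in 13.5% of all genes tested. None of the other injury genes passed the adjusted threshold of edgeR with its filter, while *Fgg* passed it without the filter (edgeR adjusted p = 0.00693).

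Among the partner genes, *Itgb1*, the integrin subunit shared by osteopontin and Vcam1 receptors, had 65.0 ± 4.19 FPKM in Control and 77.1 ± 4.40 in KSPAPN (SD, n = 3), with a log2 fold change of 0.25 (SE 0.092, edgeR adjusted p = 0.175). *Msn*, which encodes moesin and links Cd44 to actin, had 21.5 ± 2.47 FPKM in Control and 26.5 ± 1.27 in KSPAPN, and its log2 fold change was 0.31 (SE 0.10, edgeR adjusted p = 0.131). Both had every KSPAPN pool above every Control pool, a separation found in 10.8% of all genes tested. At an unadjusted edgeR p under 0.05, 2 of the 14 partner genes tested were higher and 1 lower, where 7.52% and 11.2% of all genes tested were. *Itgb1* and *Msn* were named after their values were seen.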
